A study of Mus musculus with 3 samples.

Results

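The genes that buffer, sense and move zinc and iron were followed in mouse C3H10T1/2 cells after hexavalent chromium, Cr(VI). The 10 genes were chosen by name: the metallothioneins Mt1 and Mt2, the zinc-sensing factor Mtf1, the zinc transporters Slc30a1 and Slc39a14, and the iron genes Tfrc, Slc11a2, Fth1, Slc40a1 and Cp. They were measured by 17 probes, out of 41174 probes under 27827 gene names. Of these genes, 5 had 1 probe, 3 had 2 probes and 2 had 3 probes. C3H10T1/2 is an established line of fibroblast-like cells from mouse embryos, in common use for tests of transformation. An untreated group, a group given 0.01 uM Cr(VI) and a group given 1 uM Cr(VI) were compared. All groups shared the same line, flasks and medium, with 2000 cells seeded per flask and 3 flasks a group. Exposure began 24 h after seeding and lasted 48 h, and the cells were then kept in fresh medium until they were trypsinised after 15 days, with a set of them passed on to RNA isolation. The exact day of RNA extraction is not stated, so the time since the metal was removed is known only roughly. Each group had 1 array, and whether the RNA of its flasks was pooled is not stated, so no difference has a replicate check and no p-value was computed.

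Metallothioneins are small proteins whose many cysteines bind zinc, copper and cadmium. Their genes are switched on when the zinc finger protein encoded by Mtf1 senses free zinc and binds short metal response elements in their promoters, and the zinc exporter gene Slc30a1 is a target of the same factor. Iron enters cells through the transferrin receptor (Tfrc) and the divalent metal transporter (Slc11a2), is stored in ferritin (Fth1) and leaves through ferroportin (Slc40a1), with ceruloplasmin (Cp) as a copper-containing ferroxidase.

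Levels are log2 processed signal relative to the 75th percentile of all probes on the same array, so 0 is the level of that percentile. Levels of different probes cannot be set against each other. A probe was compared where at least 1 of the 2 arrays read it well above background and they did not both read it as saturated. Where the dimmer spot was not well above background or the brighter was saturated, the fold is a lower bound, written "at least". The error of a difference is a technical standard error (SE) from the scanner software, with a median over all detected probes of 0.21 for each of the 3 comparisons. It leaves out differences between cultures. Between 36.4% and 41.8% of probes were well above background, and 199 to 239 probes were saturated on an array.

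The probes below are both Mt1 probes, which gave different results, and the Cp probe, read 5′ to 3′ from the scanner files with the mm9 coordinates listed there. In the first, capitals mark the 6 cysteine codons (TGC or TGT) among the 19 codons of the open reading frame that holds the most of them. This probe reads the cysteine-rich coding stretch itself. No gene models of that build were used, so exons and UTRs are not assigned.
Mt1 probe A_51_P294979, chr8:96704011-96704070, plus strand: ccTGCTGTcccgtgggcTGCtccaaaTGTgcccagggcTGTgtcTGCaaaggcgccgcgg
Mt1 probe A_52_P423810, chr8:96703844-96703903, plus strand: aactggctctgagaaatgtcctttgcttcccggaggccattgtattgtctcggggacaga
Cp probe A_51_P493234, chr3:19889075-19889134, plus strand: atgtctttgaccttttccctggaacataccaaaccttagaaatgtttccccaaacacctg

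The Mt1 probes lie 107 bases apart, and A_51_P294979 has a GC content of 68.3%, against 51.7% in A_52_P423810. A_52_P423810 has no RefSeq accession in the files. Mt1 and Mt2 are close paralogs, and cross-hybridisation between them was not tested.

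Promoter sequences from RefSeq (GRCm38.p6) were available for 7 of the 10 genes, in 10 windows of 250 bases before and 50 bases after an annotated start. Slc39a14, Slc40a1 and Slc11a2 were not matched. The core of the metal response element was searched as TGCACNC and TGCGCNC on both strands. The 250 bases before the start are shown for Mt1, Mt2 and Slc30a1, which are known targets of Mtf1, with matches in capitals.
Mt1, chr8:94178839-94179088, plus strand: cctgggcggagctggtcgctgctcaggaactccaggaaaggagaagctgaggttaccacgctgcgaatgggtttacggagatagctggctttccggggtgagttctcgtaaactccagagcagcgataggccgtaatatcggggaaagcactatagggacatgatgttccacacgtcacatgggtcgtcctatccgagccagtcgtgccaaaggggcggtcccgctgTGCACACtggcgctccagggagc
Mt2, chr8:94172368-94172617, plus strand: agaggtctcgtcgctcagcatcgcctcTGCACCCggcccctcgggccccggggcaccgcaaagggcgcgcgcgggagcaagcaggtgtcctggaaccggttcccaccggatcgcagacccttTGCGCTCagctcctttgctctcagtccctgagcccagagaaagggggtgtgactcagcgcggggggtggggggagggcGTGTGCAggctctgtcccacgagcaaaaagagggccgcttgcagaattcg
Slc30a1, chr1:191906531-191906780, plus strand: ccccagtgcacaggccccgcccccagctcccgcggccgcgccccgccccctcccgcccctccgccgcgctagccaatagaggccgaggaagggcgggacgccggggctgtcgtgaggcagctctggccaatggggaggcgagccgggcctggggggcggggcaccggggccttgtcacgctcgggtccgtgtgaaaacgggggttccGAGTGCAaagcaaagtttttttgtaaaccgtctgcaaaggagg

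Over the full 300-base windows, Mt2 held 4 matches, Mt1 held 3 and Slc30a1 held 2. Of the matches shown, that of Mt1 begins 23 bases before the start, that of Slc30a1 43 bases before it, and those of Mt2 223, 128 and 50 bases before it. Of 32841 promoter windows in the table, 25.7% held at least 1 match, 7.12% at least 2, 1.97% at least 3 and 0.518% at least 4. One of the Tfrc windows held 2 matches, which overlap on opposite strands, and the other window held 0. Windows of Cp, Fth1 and Mtf1 held 0 matches. A match is a string of letters and not a shown binding site, and the windows follow the annotated start of the table.

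The comparison of 1 uM with untreated cells asked whether the metal genes differed after the higher dose. Mt1 and the zinc exporter Slc30a1 were at least 2-fold lower on 1 probe each, and the ferroxidase Cp was 2-fold higher. Of the 17 member probes, 14 could be compared. At least 2-fold higher was 1 of 14, beside 5.33% of all 17905 probes compared, and at least 2-fold lower were 2 of 14, beside 4.76% of all. The median difference of the compared member probes was -0.03 on the log2 scale, equal within rounding to the -0.03 of all probes, with 7 above 0 and 7 below. The differences of 2-fold thus lay in 3 genes, each on 1 probe, while the median over member probes lay at that of all probes. With each gene given by its brightest probe, 8 of the 10 genes could be compared. Their median was -0.23, beside -0.03 of all genes, with 3 above 0 and 5 below. The agreement of the medians thus held over probes and not over genes.

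**Figure D1:**
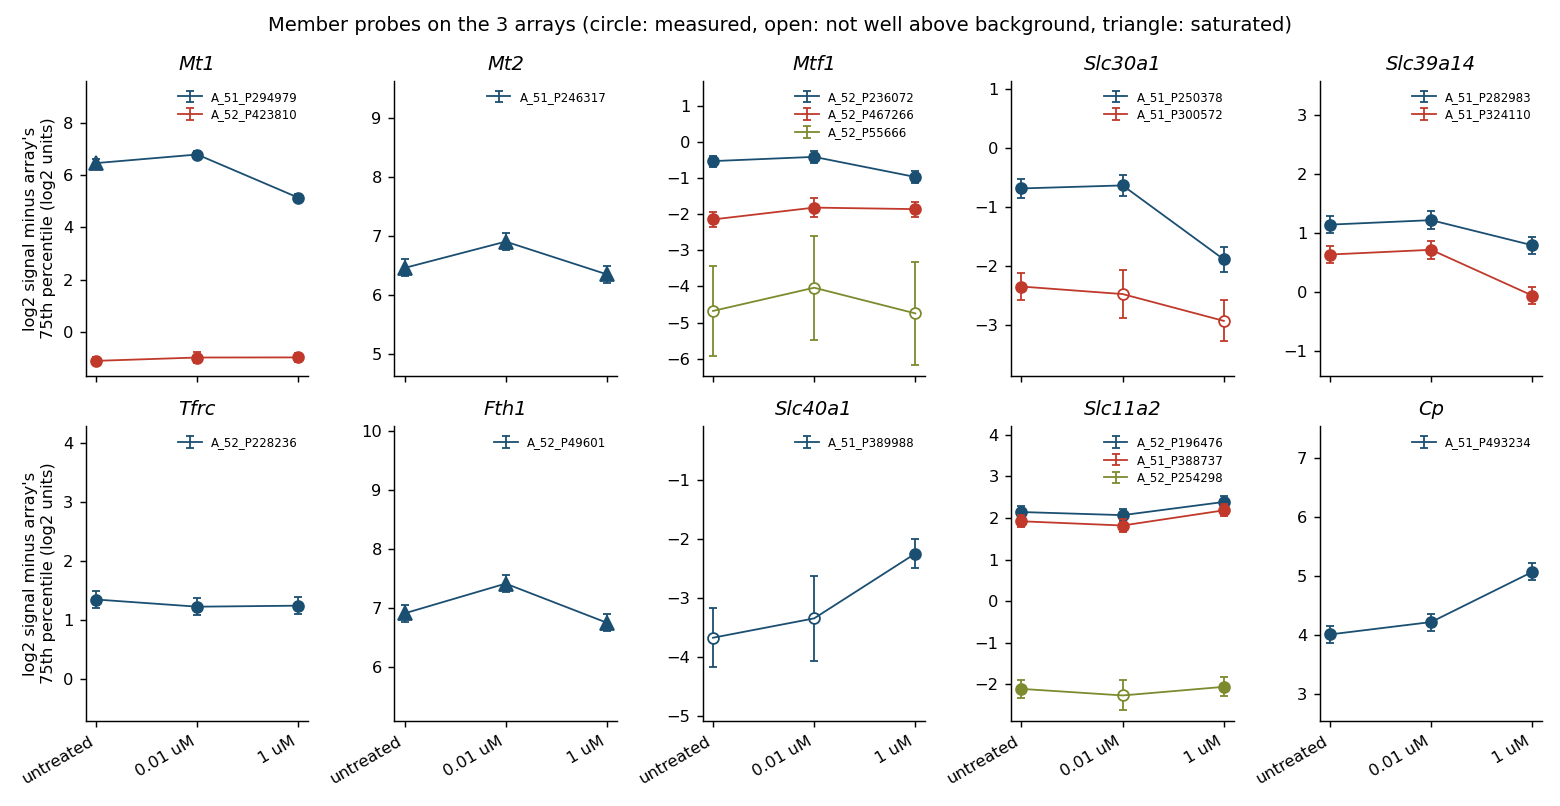
Level of each of the 17 member probes (log2 signal minus the 75th percentile of the array, vertical axis, scaled separately for each gene) on the untreated, 0.01 uM and 1 uM arrays, with technical SE bars. Filled circles are measured spots, open circles are not well above background, and triangles are saturated, so that lines reaching a triangle show no true difference. The Mt1 probe A_51_P294979 and the Slc30a1 probes are lowest at 1 uM, and Cp is highest there.

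Among member probes with a fold, taken at its bound where it is one, Mt1 had the largest difference from untreated at 1 uM. Probe A_51_P294979 was printed on 10 spots per array. At 1 uM its processed signal had a lowest, median and highest spot of 25250, 26521 and 27628 intensity units, against 58348, 61053 and 68163 units in untreated cells. The 2 sets of spots did not overlap in these unscaled units. Neither did the Tfrc spots of untreated and 0.01 uM cells, whose scaled levels were close. Spots of 1 array are technical repeats and not replicates. In untreated cells 8 of the 10 spots were saturated, the other 2 carried the outlier flag, and 70.7% of all pixels were saturated, so the true level was above what the scanner could record. At 1 uM 0 spots were saturated. After scaling the level was 5.14 at 1 uM and 6.47, a lower limit, in untreated cells. Mt1 on this probe was thus at least 2.51-fold lower (log2 difference -1.33, technical SE 0.20). Of all probes with a fold in this comparison, 2.40% lay at least as far in that direction.

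The saturation also hides the step at 0.01 uM. There the 10 spots read 55276, 57109 and 60118 units (lowest, median, highest), 0 spots were saturated, and 5 held at least 1 saturated pixel. Because the untreated spots were saturated and yet lower after scaling, no fold could be given between 0.01 uM and untreated cells. Between the doses the probe could be measured: its level was 5.14 at 1 uM and 6.80 at 0.01 uM, 3.15-fold lower (-1.66, SE 0.20), and 1.83% of all probes with a fold lay as far in that direction. The saturated pixels at 0.01 uM made up 4.12% of the total.

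The other Mt1 probe did not show this pattern. A_52_P423810 had levels of -1.11, -0.98 and -0.98 in untreated, 0.01 uM and 1 uM cells. Its differences from untreated were 0.13 at 1 uM (SE 0.24) and 0.13 at 0.01 uM (SE 0.26), both within their technical error. The probes of Mt1 therefore disagreed, and the lower value rests on the coding-stretch probe.

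**Figure D2:**
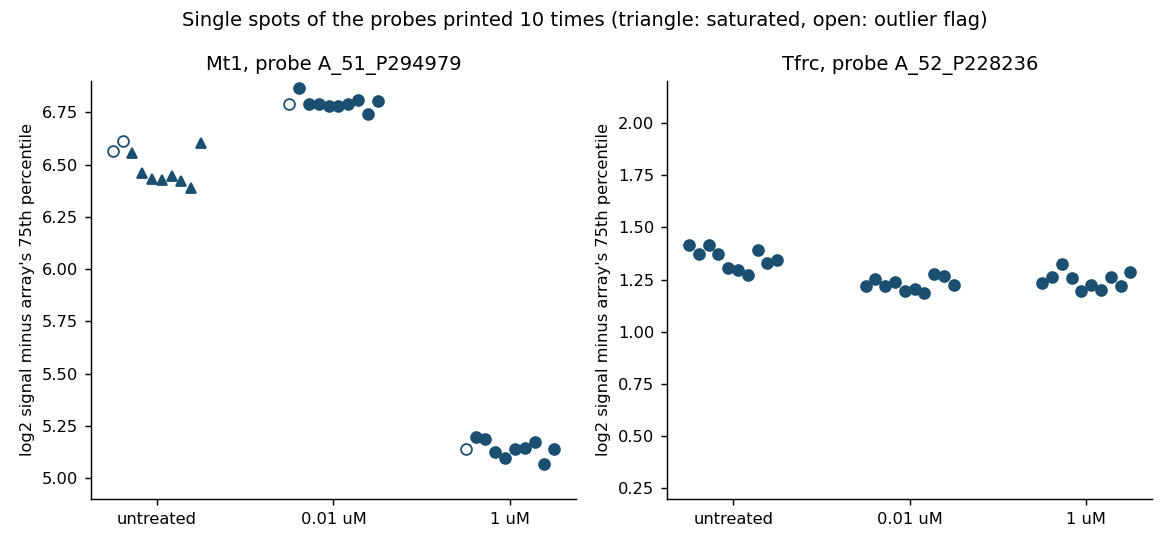
Single spots of the 2 member probes printed 10 times, Mt1 (left) and Tfrc (right), as log2 signal minus the 75th percentile of the array on the untreated, 0.01 uM and 1 uM arrays. Triangles are saturated spots and open circles carry the outlier flag. Both axes span 2 log2 units. The 10 Mt1 spots at 1 uM lie apart from those of the other arrays, while the Tfrc spots of the 0.01 uM and 1 uM arrays overlap.

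Mt2, the partner of Mt1 in the same gene cluster, could not be compared. Its probe A_51_P246317 (chr8:96697371-96697430) was saturated on all 3 arrays, with 100% of pixels at the limit on each. The processed signals of 61564, 62060 and 61664 units in untreated, 0.01 uM and 1 uM cells are therefore ceilings. A difference in Mt2 that stayed above this limit on both arrays was not detectable with these scans.

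Mtf1, the sensor of the pathway, showed no difference of 2-fold. Probe A_52_P236072 (chr4:124482221-124482280) had levels of -0.52, -0.40 and -0.96 in untreated, 0.01 uM and 1 uM cells. It was lower by 0.44 at 1 uM against untreated (difference -0.44, SE 0.23). Probe A_52_P467266 (chr4:124526365-124526424) had -2.14, -1.81 and -1.85 in the same order, a difference of 0.29 at 1 uM with an SE of 0.30. The 2 probes thus differed in sign at 1 uM. The third, A_52_P55666, was not well above background on any array.

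Slc30a1, the plasma membrane zinc exporter, was at least 2-fold lower at 1 uM on 1 of its 2 probes. Probe A_51_P250378 (chr1:193733593-193733652) had levels of -0.69, -0.64 and -1.89 in untreated, 0.01 uM and 1 uM cells. It was 2.30-fold lower at 1 uM against untreated (-1.20, SE 0.27, or 4.47 SE from 0), and 3.07% of all probes with a fold lay as far in that direction. Before background was subtracted, the spot read 571 units at 1 uM and 814 units in untreated cells. With another background correction (normexp) the difference was -0.82, under 2-fold. The untreated and 0.01 uM arrays were level, 0.05 apart. Probe A_51_P300572 (chr1:193736760-193736819) was well above background in untreated cells alone, at -2.35. It read -2.93 at 1 uM and -2.48 at 0.01 uM, and was at least 1.37-fold lower at 1 uM than in untreated cells (SE 0.42, with the read values 1.39 SE apart). The second probe thus gave the same direction but no 2-fold difference, and no fold when spike-in probes set the scale.

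Slc39a14, a zinc and iron importer, had negative differences at 1 uM on both probes, under 2-fold, except that A_51_P282983 turned positive when spike-in probes set the scale. Probe A_51_P324110 (chr14:70706300-70706359) had 0.64, 0.72 and -0.06 in untreated, 0.01 uM and 1 uM cells, 1.62-fold lower at 1 uM (-0.70, SE 0.21). Probe A_51_P282983 (chr14:70703405-70703464) had 1.15, 1.22 and 0.80, a difference of -0.35 with an SE of 0.21. On both, the 0.01 uM array lay within 0.08 of the untreated array.

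Among the iron uptake genes, Tfrc, the transferrin receptor, was level across the arrays. Its probe A_52_P228236 (chr16:32632255-32632314) was printed on 10 spots, none of them saturated. Their processed signals had a lowest, median and highest of 1681, 1786 and 1860 units in untreated cells, 1174, 1202 and 1250 units at 0.01 uM, and 1722, 1784 and 1883 units at 1 uM. After scaling the levels were 1.35, 1.23 and 1.25. The differences from untreated, -0.10 at 1 uM and -0.12 at 0.01 uM, were each under their technical SE of 0.21. The lower raw signal at 0.01 uM went with a lower 75th percentile of that array.

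Slc11a2, the divalent metal transporter that carries iron from endosomes, differed little. Probe A_52_P196476 (chr15:100223347-100223406) had 2.14, 2.07 and 2.39 in untreated, 0.01 uM and 1 uM cells. Probe A_51_P388737 (chr15:100218333-100218392) had 1.92, 1.82 and 2.18. At 1 uM they were higher than untreated by 0.24 and 0.26, so these probes matched each other closely. The third probe, A_52_P254298 (chr15:100240516-100240575), differed by 0.05.

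Fth1, the ferritin heavy chain, was as unreadable as Mt2. Its probe A_52_P49601 (chr19:10059485-10059544) was saturated on all 3 arrays, with 96.8%, 98.4% and 100% of pixels at the limit in untreated, 0.01 uM and 1 uM cells. No fold is given for iron storage by Fth1.

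Slc40a1, the iron exporter ferroportin, was well above background at 1 uM alone. Probe A_51_P389988 (chr1:45965255-45965314) read -2.25 at 1 uM, against -3.68 in untreated cells, where it was not well above background. It was at least 1.66-fold higher at 1 uM, a lower bound, while the values as read were 1.43 apart on the log2 scale (SE 0.56). At 0.01 uM it read -3.35, also not well above background, so that array could not be set against the untreated one.

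Cp, the ferroxidase that works beside ferroportin and is secreted mainly by liver in the animal, was the member at least 2-fold higher at 1 uM. Probe A_51_P493234 had processed signals of 11203, 9584 and 25233 units, and levels of 4.01, 4.22 and 5.07, in untreated, 0.01 uM and 1 uM cells. It was 2.09-fold higher at 1 uM than in untreated cells (1.06, SE 0.20, or 5.20 SE from 0). Of all probes with a fold, 4.65% lay as far in that direction. The 1 uM spot stood above both other arrays, which differed by 0.21. Of 5 hepatocyte markers (Alb, Apoa1, Ttr, Fga and Hnf4a) 0 were well above background on any array. Their summed signal was 0.17 at 1 uM and 0.15 in untreated cells, in units of the 75th percentile signal.

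**Figure D3:**
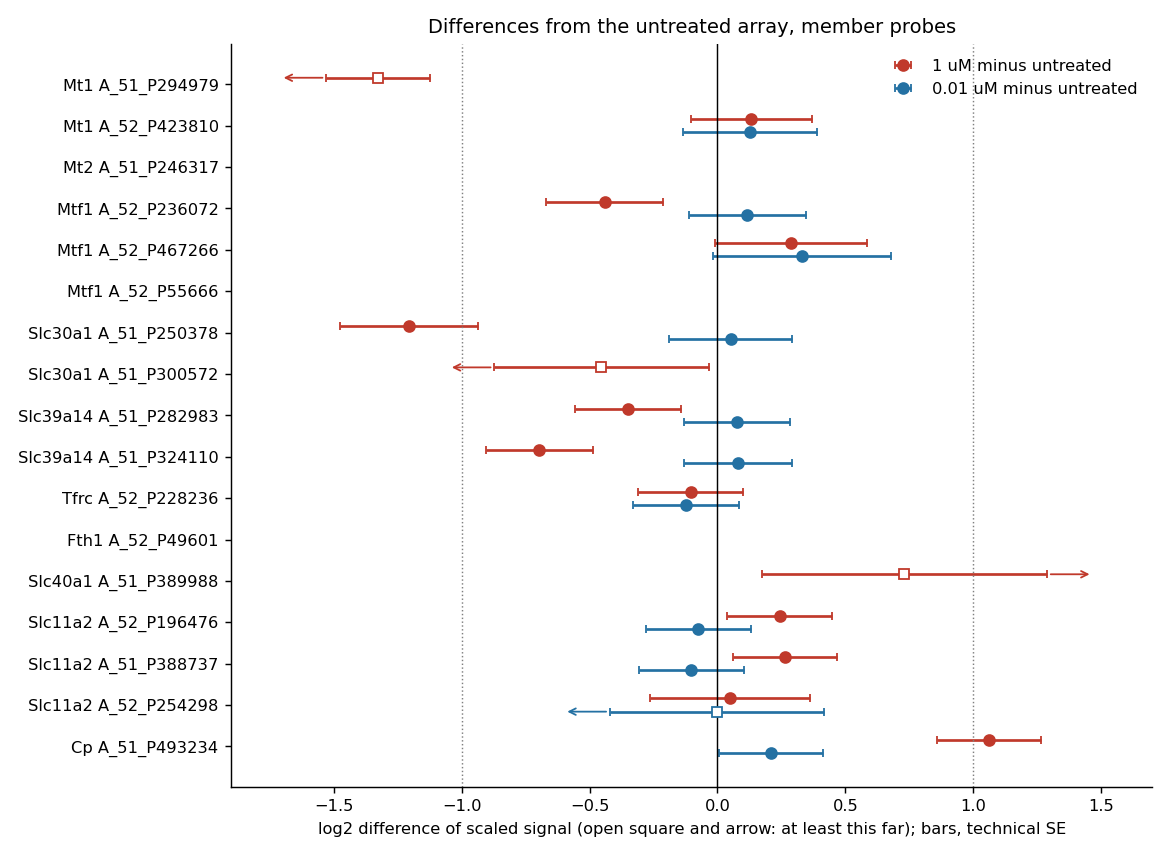
Difference from the untreated array for each member probe (log2 units, horizontal axis) at 1 uM (red) and 0.01 uM (blue), with technical SE bars. Open squares with arrows are lower bounds, dotted lines mark 2-fold, and rows without a point were saturated or dim on both arrays or gave no fold. The points past a dotted line are Mt1 A_51_P294979, Slc30a1 A_51_P250378 and Cp, all at 1 uM.

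At 0.01 uM the member probes with a fold differed little from untreated cells. Of 13 member probes compared, 2 gave no fold, Mt1 A_51_P294979 and Slc30a1 A_51_P300572. Mt2 and Fth1 (saturated), Slc40a1 (dim) and the Mtf1 probe A_52_P55666 (dim) were not compared. Of the 13, 0 were at least 2-fold higher, beside 0.293% of all 17060 probes, and 0 were at least 2-fold lower, beside 0.164%. The member median was 0.08 and that of all probes 0.04. The largest measured difference was 0.33, on the Mtf1 probe A_52_P467266, with an SE of 0.35. Cp came next at 0.21 (SE 0.20).

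Between the doses, Mt1 and Slc30a1 were again the genes at least 2-fold apart. Of 13 member probes compared, 0 were at least 2-fold higher at 1 uM, beside 5.17% of all 17184 probes, and 2 were at least 2-fold lower, beside 6.40%. The Slc40a1 probe was among the 13 but gave no fold. Slc30a1 probe A_51_P250378 was 2.39-fold lower at 1 uM than at 0.01 uM (-1.26, SE 0.29). Cp was 1.80-fold higher (0.85, SE 0.20). The Slc39a14 probes A_51_P324110 and A_51_P282983 had differences of -0.78 (1.71-fold lower) and -0.43, and the Mtf1 probe A_52_P236072 had a difference of -0.56 (SE 0.24). With this scaling the median of all probes detected on both arrays was -0.12 between the doses. These comparisons share the 1 uM array with the first, so the same low or high spots enter both.

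A total RNA amount that differed between groups would not be seen with this scaling. Scaled instead on 5 unsaturated spike-in probes, the median of all probes detected on both arrays stood at 0.64 for 1 uM against untreated, in place of -0.04, and at 0.35 in place of 0.05 for 0.01 uM. On that scale Mt1 A_51_P294979 was lower by at least 0.65 on the log2 scale (-0.65) and Slc30a1 A_51_P250378 by 0.53 (-0.53). Both lay below the shifted median and neither was past 2-fold. Cp was higher by 1.74. Mtf1 A_52_P236072, Slc39a14 A_51_P282983 and Tfrc had positive differences there, of 0.24, 0.33 and 0.57, each under the shifted median. A difference in spike-in amount and one in cellular RNA cannot be told apart.

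The genes around the members were then examined from a list of 72 further zinc, iron, heme and copper genes, of which 69 were on the array and 17 were well above background on no array. Each gene is given by its brightest probe. At 1 uM against untreated, 50 genes could be compared, of which 0 were at least 2-fold higher, beside 5.62% of all 12286 genes, and 2 were at least 2-fold lower, beside 4.94%. The median of the list was 0.04 and that of all genes -0.03. At 0.01 uM 0 of 50 were past 2-fold in either direction, beside 0.264% higher and 0.170% lower of all 11745 genes. Between the doses, 0 of 50 lay 2-fold or more above at 1 uM and 2 lay 2-fold or more below, beside 5.26% and 6.54% of all 11911 genes. Over all 12286 genes compared at 1 uM against untreated, 5821 were above 0 and 6388 below. Many of the single differences lie within technical error. The counts of signs by role hold for the 75th percentile scaling. For 1 uM against untreated, spike-in scaling raised the list's median to 0.72 and left 1 iron uptake gene and 1 copper gene, Scara5 and Cox17, below 0.

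Scara5, a ferritin receptor that offers an iron route apart from transferrin, was the furthest of these genes. Its level was 3.43, 3.63 and 1.59 in untreated, 0.01 uM and 1 uM cells. It was 3.57-fold lower at 1 uM than in untreated cells (-1.84) and 4.10-fold lower than at 0.01 uM (-2.03). Its other probe was not well above background on any array, and with the mean of both probes the difference from untreated was -0.82. The other 6 iron uptake genes compared all had positive differences at 1 uM. Among them Trf, which encodes transferrin, was higher by 0.26.

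Cox17, a chaperone that carries copper to cytochrome c oxidase, was 2.14-fold lower at 1 uM (-1.10) on its brighter probe. That probe had levels of 6.14, 5.32 and 5.04 in untreated, 0.01 uM and 1 uM cells, so it was also lower by 0.82 on the log2 scale at 0.01 uM (-0.82). The other Cox17 probe differed by -0.23 at 1 uM and by 0.05 at 0.01 uM, and the probes thus disagreed. The brighter probe's difference at 1 uM was under 2-fold with quantile normalization (-0.88), loess (-0.91) and spike-in scaling (-0.42), as was the mean of the probes (-0.66), and at 0.01 uM it was past 2-fold with loess (-1.02). Of 9 copper genes compared at 1 uM, 2 were above 0, 6 were below and 1 gave no fold. Slc31a1, the main copper importer, differed by 0.05.

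Of 5 zinc exporters other than Slc30a1 compared at 1 uM, 3 were above 0 and 2 below. Of 9 zinc importers compared, 7 were above 0 and 2 below, with a median of 0.18. Mt3, the metallothionein known from brain, had levels of -1.55, -1.28 and -1.75 in untreated, 0.01 uM and 1 uM cells, a difference of -0.20 at 1 uM.

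The iron regulatory proteins bind the mRNAs of Tfrc and Fth1 when iron is scarce. Aco1 differed by -0.10 at 1 uM, and Ireb2 by 0.66, or 1.58-fold higher. Ftl1, the ferritin light chain, was saturated in untreated and 1 uM cells and gave no fold, and near-identical ferritin light chain copies cannot be told apart by hybridisation. Of 4 iron regulators compared at 1 uM, 2 were above 0 and 2 below.

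Of 5 heme genes compared at 1 uM, 1 was above 0 and 4 were below. Hmox1, the inducible heme oxygenase that frees iron from heme, had levels of 5.67, 5.84 and 5.33 in untreated, 0.01 uM and 1 uM cells. It was lower at 1 uM by 0.34 against untreated (-0.34). Hp, an acute-phase protein that binds free haemoglobin, had 3.30, 3.79 and 2.76. It was 2.04-fold lower at 1 uM than at 0.01 uM (-1.03), with the 0.01 uM array the highest of the 3. This difference was under 2-fold with each other scaling or background correction, at -0.94 to -0.65 on the log2 scale. Of 7 mitochondrial iron genes, 6 were above 0 and 1 was below.

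**Figure D4:**
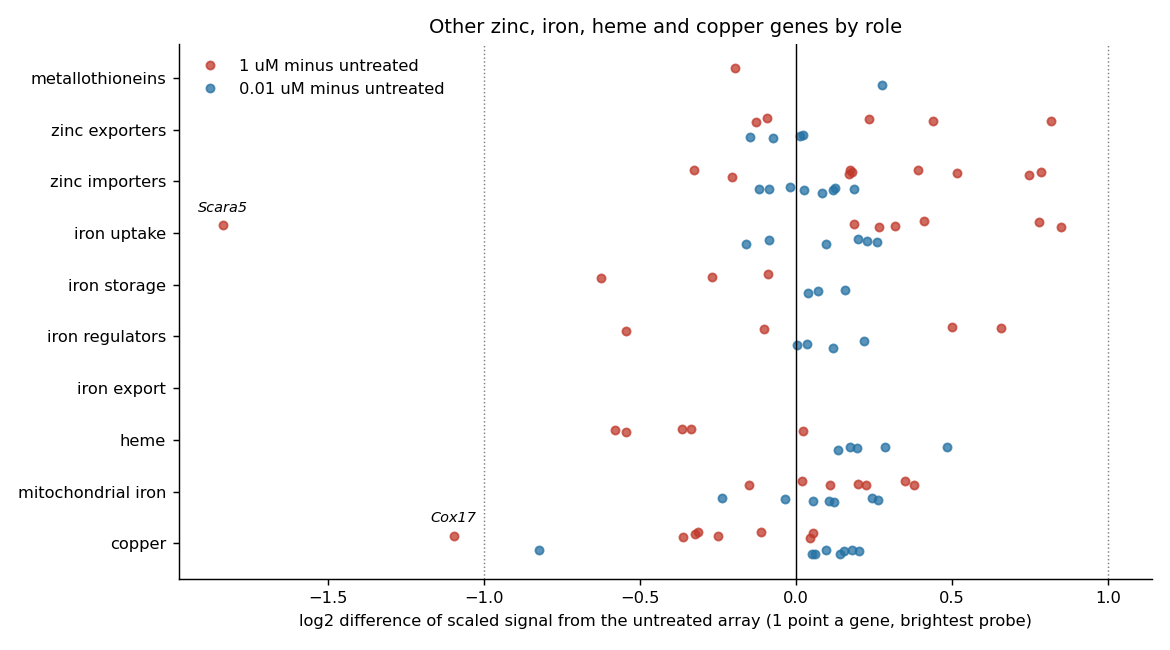
Difference from the untreated array for the other zinc, iron, heme and copper genes, grouped by role (log2 units, 1 point a gene on its brightest probe), at 1 uM (red) and 0.01 uM (blue). Dotted lines mark 2-fold. Scara5 and Cox17 at 1 uM are the points past a dotted line, and the 0.01 uM points other than Cox17 lie within 0.5 of 0.

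Markers of the cells were set beside these values. Of 10 fibroblast or mesenchymal markers, 9 were well above background at 1 uM and 10 on each of the other arrays. The exception, Thy1, had levels of 2.84, 3.41 and -3.56 in untreated, 0.01 uM and 1 uM cells. The summed signal of the list was 453 at 1 uM, where 3 of its genes were saturated, and 598 in untreated cells, where 4 were. Of 9 macrophage or blood cell markers, 3 were well above background at 1 uM and 2 in untreated cells, with summed signals of 5.02 and 5.04, and Ptprc, the pan-leukocyte marker, was not well above background on any array. Of 6 epithelial markers 1 (Krt19) was well above background at 1 uM and 0 in untreated cells. Of 5 endothelial markers 2 were at 1 uM and 1 in untreated cells. Of 5 erythroid markers 0 were on any array. The part of these markers in the metal gene values was not tested, and in bulk RNA fewer cells of a kind and less RNA per cell cannot be told apart.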

How the data were processed

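Total RNA of 3 groups, 1 array each, was labelled with Cy3 and hybridised to arrays of 1 slide read in 1 scan. Per the file headers, the authors' spot intensity comes from Agilent Feature Extraction 10.5.1.1 with spatial and multiplicative detrending. The deposited log2 value table equals log2 processed signal minus a constant per array (9.45 for untreated, 9.01 for 0.01 uM and 9.56 for 1 uM), with column medians of -4.23, -3.96 and -4.03. Those constants equal the 75th percentiles of the arrays (9.45, 9.01 and 9.56) within rounding, so the deposited table carries the scaling of the main setting. The sources used here do not say how it was made. It served as an alternative, but as a near copy of the main setting.

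Control spots and outlier-flagged spots were left out, repeat spots were averaged as log2 values, and the 75th percentile of all probes of the array was taken off. For bounds, a dim spot was set at the higher of its own value and the lowest signal of a detected probe on that array. Members and lists were chosen with earlier results of these data known. Named genes were all members, genes of the wider list at least 2-fold apart, and Ftl1, Aco1, Ireb2, Trf, Hmox1, Slc31a1 and Mt3. Genes given under other observations were named outside this rule, after their values were seen. With 1 array a group, no test was made, and the number of arrays limits the precision. There were 12 alternatives, among them quantile, loess (span 0.4), spike-in and normexp (offset 50) settings and a 3-fold threshold. The counting was tested on simulated data that held no saturated probes, so the rules for saturated spots were not tried there. Tools were R 4.3.3 with limma 3.58.1 and Python 3.11.15 (statsmodels 0.14.6, pandas 2.3.3, numpy 2.4.6). Promoters are from RefSeq.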

Additional observations from a re-analysis of the deposited data

How the results depend on the processing

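Of 201 counts and medians recomputed under the alternatives, 160 stayed close to the main value (counts within 1.5 times, medians within 0.21), and of 361 single-probe values 320 moved by less than their technical SE and 0 of those past 2-fold changed sign. Cp was past 2-fold at 1 uM against untreated in 11 of 11 settings (1.02 to 1.74 on the log2 scale). Mt1 A_51_P294979 was in 10 of 11 (-1.36 to -0.65) and Slc30a1 A_51_P250378 in 9 of 11 (-1.27 to -0.53), failing under spike-in scaling and, for Slc30a1, normexp. Settings that changed only the filter, the outlier flags or the source of the values left Cp at its main 1.06 within rounding. The tallies here thus include near copies of the main setting and do not count independent checks. For 1 uM against untreated, member probes higher and lower were 2 and 0 (median 0.73) with spike-in scaling, 0 and 0 at 3-fold, 2 higher without a filter, and 1 lower with normexp. The wider list had 13 higher and 1 lower (median 0.72) with spike-in scaling, 1 and 1 with quantile normalization, 2 and 0 with the mean of a gene's probes, 1 higher without a filter, and 1 lower with loess and at 3-fold. For 0.01 uM against untreated, spike-in medians were 0.38 for members and 0.40 for the wider list, which had 1 lower with loess and 1 higher with the mean of probes. For 1 uM against 0.01 uM, members had 1 higher and 1 lower (median 0.33) with spike-in scaling, 1 higher with quantile, loess or no filter, and 1 lower with normexp or at 3-fold. There the wider list had 5 higher and 1 lower (median 0.27) with spike-in scaling, 2 and 1 with quantile, 1 and 1 under loess and under detected probes' 75th percentile, and 1 lower with the median of detected probes, normexp or at 3-fold. The fewer calls at 3-fold follow from the stricter threshold, and the cause of the others was not tested. No paired analysis was possible because each group had 1 array and no value came from a test, and for the same reason no array could be left out. Saturation limits Mt2, Fth1, Ftl1 and Mt1, and signal near background limits Slc40a1 and the dimmer Mtf1 and Slc30a1 probes. Low signal also limits the brighter Slc30a1 probe at 1 uM. It read -1.89 there, and the lowest detected level of that array was -2.81.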

Other observations

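Genes of the wider list that lay under 2-fold on their brightest probe were looked at after their values were seen. Ncoa4, the receptor that takes ferritin to the lysosome for iron release, was lower at 1 uM than in untreated cells on each of its 3 probes, with log2 differences of -0.63, -0.91 and -0.85. At 0.01 uM the same probes differed from untreated by 0.16, 0.09 and 0.14. Steap1, of a family of membrane metalloreductases, was higher at 1 uM on both of its probes, by 0.85 and 1.00, and its 0.01 uM differences were 0.10 and 0.19. The zinc exporter Slc30a4 was 1.76-fold higher at 1 uM and the zinc importer Slc39a10 was 1.72-fold higher, each on its only probe. The copper chaperone Atox1 was lower by 0.32 (-0.32) and the copper pump Atp7a by 0.32 (-0.32) at 1 uM. With spike-in scaling the signs of Ncoa4, Atox1 and Atp7a changed at 1 uM against untreated, on brightest probes. Steap1, Slc30a4 and Slc39a10 stayed above 0. There 3 of 3 iron storage genes, with Ncoa4, and 7 of 8 copper genes, with Atox1 and Atp7a, were above 0. None of these values has a replicate array.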
